A study of Mus musculus with 6 samples.

Results

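Reads of the endogenous retroviruses and retrotransposons with long terminal repeats (LTRs) that belong neither to the ERVK nor to the ERV1 class were compared between CD24- and CD24+ Mvt1 cells. They were every annotation of the deposited read tables that names an LTR element of another family, 198 of the 16023 annotations in the tables and 198 of 847 repeat annotations. The family names were MaLR for 96 annotations, ERVL for 82, Gypsy for 10, Gypsy? for 3, ERVL?, ERV and LTR for 2 each and Genie? for 1, the question mark being part of the name. The other LTR annotations were 147 of ERVK and 103 of ERV1. The 198 annotations took 429307 reads, which lay in 50950 of the 83569 separate genomic stretches with LTR reads.

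Mvt1 cells come from a mammary carcinoma of FVB/N mice and were grown in DMEM with fetal bovine serum and sorted by CD24 on the cell surface into cells without it (CD24-) and cells with it (CD24+). The line derives from mice that carried c-Myc and Vegf transgenes under the MMTV promoter, which both groups share. RNA of 3 plates of adherent cells of each group was sequenced from poly(A)-selected libraries, so a group is cells of 1 line in culture, with no treatment and no allele that differs by design. Whether the plates of a group came from separate sorts is not stated, and p-values here measure only the spread between these plates. Cd24a, the gene of the sorted antigen, had 8.97, 8.51 and 5.13 reads per 1000000 mapped reads (CPM) in the CD24- libraries and 51.5, 61.8 and 53.9 in the CD24+ libraries (log2 fold change 2.88 ± 0.17 (SE), adjusted p = 6.65e-07, edgeR quasi-likelihood test), so the groups stood apart as labelled.

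LTR retrotransposons are flanked by a pair of LTRs that hold the promoter and the polyadenylation signal, and most copies survive as a lone LTR after recombination between the pair. ERVL elements, of which MERVL with its MT2 LTRs is a mouse member with an open reading frame for retroviral proteins, are transcribed strongly in the early mouse embryo at genome activation. The MaLR elements (MT, ORR1 and MLT1) are their relatives without such genes, MT and ORR1 being found in rodents and MLT1 shared across mammals. The annotation places the MLT2 names in ERVL. MT LTRs are promoters of many transcripts in mouse oocytes. Names that end in -int are internal parts between LTRs, the others are LTRs.

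The stretches below are 8 of the 12 genomic copies with the largest called differences between the groups, shown because the reads of each moved far more than those of its annotation. The 4 others, which lay between reads of a protein-coding gene or had most reads in its transcripts, are not printed. The MTEa copy had most of its reads in a long non-coding RNA, and the MER68 copy had some in a transcript marked for nonsense-mediated decay. Each line is up to 120 bases of the plus strand of mm9, put together from the deposited reads of the copy, with the most-read sequence of 47 bases in capitals. The MTEa, MER68 and ORR1D2 copies were higher in CD24+ cells and the others were lower.
MTEa at chr8:123583004-123583123: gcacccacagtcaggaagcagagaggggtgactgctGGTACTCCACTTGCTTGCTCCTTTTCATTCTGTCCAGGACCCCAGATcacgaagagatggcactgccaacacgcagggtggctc
MER68 at chr6:48796039-48796158: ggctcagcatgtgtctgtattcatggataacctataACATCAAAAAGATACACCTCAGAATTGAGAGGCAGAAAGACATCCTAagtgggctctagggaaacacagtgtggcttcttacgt
ORR1D2 at chr3:152372406-152372525: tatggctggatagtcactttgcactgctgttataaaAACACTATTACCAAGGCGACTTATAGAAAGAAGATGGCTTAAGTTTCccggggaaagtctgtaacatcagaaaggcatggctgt
MTD at chr13:28101843-28101962: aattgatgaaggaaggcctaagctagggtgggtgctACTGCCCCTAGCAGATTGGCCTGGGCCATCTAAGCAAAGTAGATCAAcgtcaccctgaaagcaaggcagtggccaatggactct
RMER15 at chr13:103165402-103165521: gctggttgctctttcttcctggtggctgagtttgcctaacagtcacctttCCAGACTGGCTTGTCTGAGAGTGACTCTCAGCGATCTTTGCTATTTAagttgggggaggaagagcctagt
MTB at chr15:63899840-63899959: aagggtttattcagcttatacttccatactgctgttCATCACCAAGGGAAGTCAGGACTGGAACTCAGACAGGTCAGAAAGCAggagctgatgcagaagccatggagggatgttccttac
RMER10A at chr1:7042978-7043097: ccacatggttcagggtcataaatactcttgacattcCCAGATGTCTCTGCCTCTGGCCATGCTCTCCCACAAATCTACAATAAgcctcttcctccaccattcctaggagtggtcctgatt
ORR1D1 at chr1:7043501-7043620: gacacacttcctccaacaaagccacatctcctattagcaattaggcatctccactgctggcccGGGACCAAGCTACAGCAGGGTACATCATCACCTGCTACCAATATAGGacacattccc

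The libraries held 12824776, 14212811 and 12075794 mapped reads in CD24- and 9046025, 24515621 and 25692147 in CD24+ cells, so CD24+ replicate 1 was the shallowest. Reads without an annotation took 16.9% to 20.2% of a library, with the highest share in CD24+ replicate 1. Ribosomal RNA reads were 8190 to 9087 CPM in CD24- and 11990 to 35118 CPM in CD24+ libraries, highest in CD24+ replicate 2, and their part in the results was not tested. The labelled epithelial identity was checked against 5 luminal markers. Krt8 and Krt18 were abundant in both groups and lower in CD24+ cells (log2 fold change -1.08 and -1.82), while Cdh1 and Epcam had 2 and 6 reads over all 6 libraries. The sum of the luminal list ran from 1357 to 1515 CPM in CD24- and from 548 to 634 CPM in CD24+ libraries. The fibroblast list (Pdgfra, Pdgfrb, Dcn and Col1a1 were in the tables) summed to 5.96 to 11.6 CPM in CD24- and 44.2 to 71.8 CPM in CD24+ libraries. Pdgfrb made up most of the sum in the CD24+ libraries (35.0 to 57.6 CPM), and the 3 members tested rose. The 4 basal or myoepithelial markers summed to 0.0780 to 0.774 CPM in CD24- and 4.69 to 10.4 CPM in CD24+ libraries. Acta2, the only one tested, made up most of the sum in the CD24+ libraries (3.96 to 9.22 CPM, log2 fold change 3.85). Krt5, Krt14 and Trp63 had 1, 3 and 54 reads in all. The immune list summed to 2.40 to 3.31 CPM in CD24- and 0 to 0.117 CPM in CD24+ libraries, nearly all of it Itgam, with Ptprc at 2 reads. The endothelial list was at 1.24 to 1.90 CPM in CD24- and 0.117 to 0.553 CPM in CD24+ libraries. The early embryo and germ cell list had 1 read in all. The part of other cell types in the results below was not tested, and in such bulk RNA fewer cells of a type and less RNA per cell cannot be told apart.

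As a whole, these LTR annotations took 4669, 4394 and 4882 CPM in CD24- cells and 3509, 4302 and 4314 CPM in CD24+ cells. All 3 CD24+ libraries lay below all 3 CD24- libraries, with CD24+ replicate 1 lowest by far. The means were 4648 ± 244 (SD, n = 3) and 4041 ± 461 (SD, n = 3) CPM, a ratio of 0.869 (two-sided exact permutation test, p = 0.1, the smallest this design can give). The log2 ratio was -0.20, and it was -0.11 without CD24+ replicate 1. When each distinct sequence was counted once, the log2 ratio was -0.07 (exact permutation p = 1). Such counts change with depth, since deeper libraries repeat sequences more often. CD24+ replicates 2 and 3 were the deepest, and the part of depth was not tested.

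MaLR elements made up most of these reads, and their level was 3633, 3431 and 3807 CPM in CD24- and 2731, 3346 and 3339 CPM in CD24+ cells. The groups did not overlap, and the means of 3624 ± 188 and 3139 ± 353 CPM (SD, n = 3 each) gave a ratio of 0.866 (exact permutation p = 0.1, 0.343 adjusted over 8 families). ERVL reads were at 1013, 941 and 1052 CPM in CD24- and 749, 927 and 944 CPM in CD24+ cells, and here the highest CD24+ library reached above the lowest CD24- library (ratio 0.871, exact permutation p = 0.2, 0.343 adjusted). Without CD24+ replicate 1 the log2 ratio moved from -0.21 to -0.12 for MaLR and from -0.20 to -0.10 for ERVL, and with each distinct sequence counted once it was -0.0827 and -0.0581 (exact permutation p = 1 for both). The Gypsy annotations, remains of an old retrotransposon family of mammals, went the other way at a much lower level. They had 14.1, 15.5 and 16.1 CPM in CD24- and 22.1, 20.7 and 21.5 CPM in CD24+ cells, without overlap (ratio 1.41, exact permutation p = 0.1, 0.343 adjusted). Single copies weighed here: a MamGypLTR1b copy in Sdc2 went from 0.227 ± 0.0582 to 2.99 ± 0.382 CPM, and MamGyp-int, with 91.8% of its reads in 1 copy, was at 8.65 and 11.1 CPM in the means (log2 fold change 0.35 with all reads, adjusted p = 0.0494, and 0.10 without that copy). The remaining families were at 6.97 CPM or less in every library and overlapped between the groups. With 3 libraries against 3, none of the family values could pass a threshold of 0.05.

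These elements were also set against the ERVK and ERV1 reads of the same libraries, 2 classes that differed from each other. ERVK reads were at 29024, 28569 and 30297 CPM in CD24- and 25793, 26896 and 27995 CPM in CD24+ cells, and ERV1 reads at 7932, 7189 and 6206 against 2236, 2892 and 2839 CPM. The log2 ratio of these elements to the sum of both classes was -2.98, -3.02 and -2.90 in CD24- and -3.00, -2.79 and -2.84 in CD24+ cells. ERVK reads made up most of that sum, so the ratio does not describe ERV1 reads alone. The libraries overlapped, and the difference of the means was 0.09 (exact permutation p = 0.3). With 1 library left out it ran from 0.053 without CD24+ replicate 2 to 0.156 without CD24+ replicate 1. It was 0.158 with each distinct sequence counted once.

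The reads were also summed by name group, and differences between the groups of names were not tested. ORR1 elements were at 1443, 1344 and 1501 CPM in CD24- and 982, 1247 and 1238 CPM in CD24+ cells, a ratio of 0.808 with no overlap. RMER elements, medium-reiteration repeats of rodents that the annotation places in ERVL, were at 219, 200 and 230 CPM in CD24- and 132, 167 and 171 CPM in CD24+ cells (ratio 0.725, no overlap). The MT elements MTA to MTE were at 1560, 1483 and 1665 CPM in CD24- and 1159, 1456 and 1433 CPM in CD24+ cells, also without overlap. The means were 1569 ± 91.2 and 1349 ± 165 CPM (SD, n = 3 each, ratio 0.860), with CD24+ replicate 1 lowest by far. MERVL with its MT2 LTRs was at 538, 492 and 559 CPM in CD24- and 379, 492 and 498 CPM in CD24+ cells, and the groups overlapped by CD24- replicate 2 (ratio 0.861, exact permutation p = 0.3). The older MLT1 elements had 580 ± 20.4 and 569 ± 49.9 CPM (ratio 0.981, exact permutation p = 0.8) and MLT2 45.2 ± 4.01 and 44.4 ± 2.58 CPM (ratio 0.983, exact permutation p = 0.7), with overlapping libraries (SD, n = 3 each). The sum of the 83 remaining annotations was higher in CD24+ cells, with 274, 270 and 289 against 303, 309 and 318 CPM (ratio 1.12, no overlap). The median log2 fold change of the 48 tested among them was -0.03, and 38 were not called. Single copies weighed on this sum: an MLT-int copy on chromosome X went from 26.2 to 48.3 CPM in the means. A MER68 copy on chromosome 6 went from 0.555 to 9.59 CPM. The 4 groups without overlap had the smallest p this design can give, 0.1, or 0.175 adjusted over 7 groups.

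**Figure D1:**
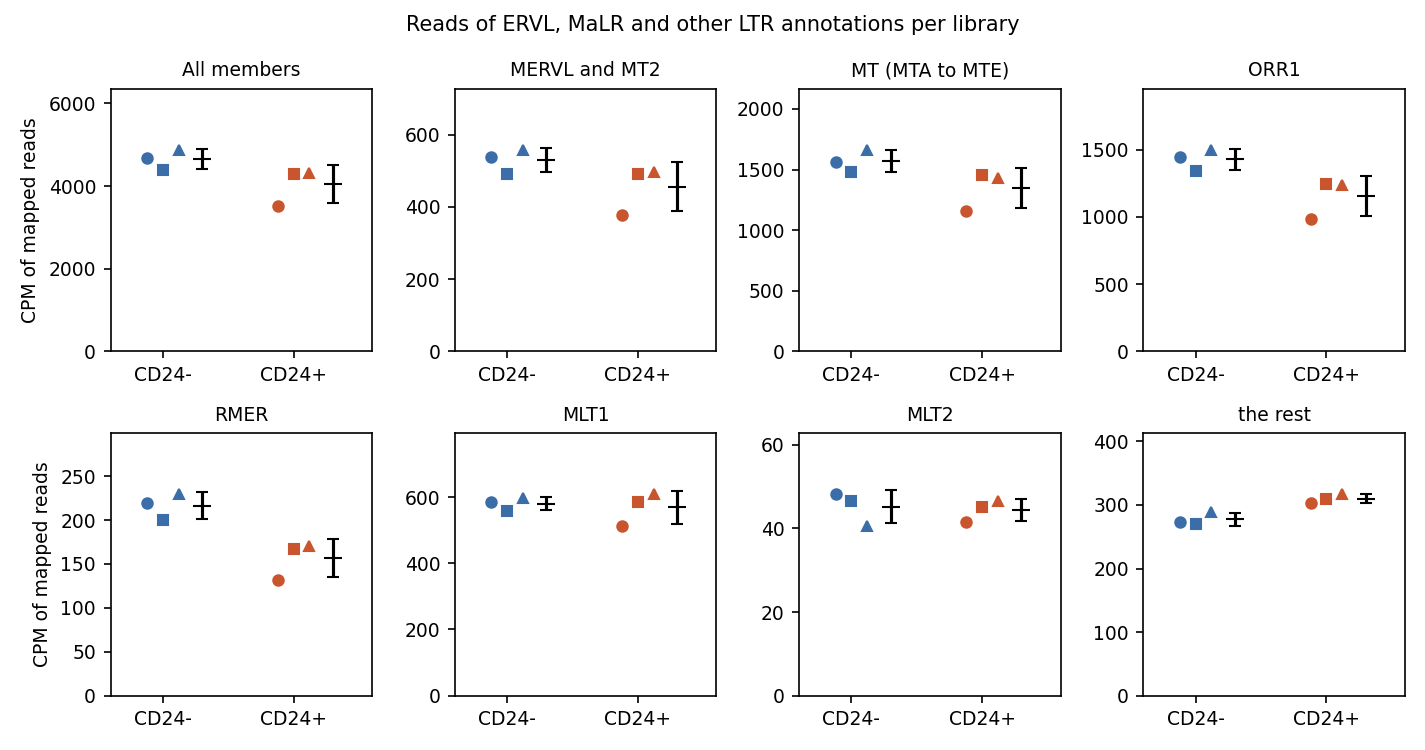
Reads per 1000000 mapped reads (CPM, vertical axis, from 0) of all 198 annotations and of the 7 name groups in each library. Circles are replicate 1, squares replicate 2 and triangles replicate 3, CD24- in blue and CD24+ in orange, and the bars beside them are the mean ± SD. All members together fell from 4648 to 4041 CPM in the mean, the ORR1 and RMER panels show the CD24+ libraries below the CD24- libraries, and in the MLT1 and MLT2 panels the libraries overlap.

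Counts per annotation were then tested with edgeR across all 11868 annotations with enough reads, genes included. Of the 198 LTR annotations 148 were tested, and the 50 others held 1053 reads together. In CD24+ cells 11 annotations were higher and 25 were lower (adjusted p below 0.05), that is 24.3% of those tested, where 44.3% of all annotations in the table were called, 20.8% as higher and 23.6% as lower. The called share was thus below that of the whole table. The median log2 fold change of the 148 was -0.16, against -0.03 over all annotations, -0.26 over the tested ERVK and ERV1 annotations and -0.21 over the other tested repeats. Of 199 tested ERVK and ERV1 annotations 61 were called. All 36 called annotations had groups that did not overlap, which a call makes likely, and so had 26 of the 112 not called. Over all annotations, called or not, 56.3% had no overlap. Fold changes ran from -1.13 for MLT1E1 to 1.57 for MER74A on the log2 scale, and 98 of the 148 were negative. With 1 library left out, which leaves fewer libraries to test, from 22 (without CD24- replicate 1) to 36 (without CD24+ replicate 2) annotations were called. The calls depended on how reads were counted. With each distinct sequence counted once, 15 were called (11 higher, 4 lower), and the median log2 fold change was 0.00465.

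The calls by name are read against the 20.8% higher and 23.6% lower over all annotations, and no difference between name groups was tested. Of 7 MERVL and MT2 annotations 2 were lower and 0 higher (median -0.20). Of 25 tested ORR1 annotations 9 were lower and 0 higher, with a median log2 fold change of -0.31. Of 4 RMER annotations 3 were lower and 0 higher (median -0.39). Among 19 MT annotations 5 were lower and 1 was higher (median -0.17). Among 36 tested MLT1 annotations 3 were lower and 2 higher, and among 9 MLT2 annotations 1 was lower and 0 higher. The remaining 48 tested annotations were the group with more calls upward, 8 higher and 2 lower. Of 42 tested internal parts 4 were higher and 9 lower (median -0.15), and of 106 LTRs 7 were higher and 16 lower (median -0.16), a difference that was not tested.

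The 5 annotations with the most reads did not pass the test with all libraries. MTD, an LTR of the MT group, had 346, 326 and 393 CPM in CD24- and 237, 320 and 313 CPM in CD24+ libraries (log2 fold change -0.29 ± 0.12, adjusted p = 0.0775), with no overlap. It was at -0.17 without CD24+ replicate 1, and it passed the test without CD24+ replicate 2 (adjusted p = 0.0473). MTC had 208 ± 20.9 and 174 ± 27.9 CPM (-0.25 ± 0.12, adjusted p = 0.126), its groups overlapped, and it was at -0.13 without CD24+ replicate 1. MTA_Mm-int, MTA_Mm and ORR1E had log2 fold changes of -0.17, -0.10 and -0.09 (adjusted p 0.0935 to 0.499). Their reads came from 1169 to 4266 stretches each.

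MERVL itself was read in every library and did not pass the test. MERVL-int, the internal part, had 102, 90.8 and 105 CPM in CD24- and 59.7, 95.0 and 91.5 CPM in CD24+ libraries (log2 fold change -0.26 ± 0.15, adjusted p = 0.187), with CD24+ replicate 1 low and the other CD24+ libraries within the CD24- range. MT2_Mm, the LTR that belongs to the youngest MERVL copies, had 43.7, 38.1 and 48.7 CPM in CD24- and 38.2, 46.4 and 45.1 CPM in CD24+ libraries, a log2 fold change of 0.00 ± 0.11 (adjusted p = 0.995). MERVL_2A-int, MT2B and MT2B2 had log2 fold changes of -0.20, -0.16 and -0.18 and did not pass the test (adjusted p 0.142, 0.275 and 0.202). Without the copy that held 22.4% of its reads, MERVL_2A-int was at -0.37 and passed it (adjusted p = 0.0310). The LTRs MT2A and MT2C_Mm were lower in CD24+ cells. MT2C_Mm had 20.0, 19.1 and 21.8 CPM in CD24- and 11.5, 14.5 and 14.1 CPM in CD24+ cells (-0.58 ± 0.12, adjusted p = 0.00320). MT2A had 98.7, 95.5 and 108 CPM in CD24- and 74.0, 87.0 and 89.8 CPM in CD24+ cells (-0.26 ± 0.09, adjusted p = 0.0451), a call that was lost when any single library was left out and with TMM scaling or DESeq2.

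Genes known to control or accompany MERVL transcription were read beside it. Of 28 genes listed, 23 were in the tables and 16 were tested, of which 0 were higher and 7 lower in CD24+ cells, where 21.7% of all tested genes were higher and 23.9% lower. The lower ones were Setdb1 (-0.51), Ehmt1 (-0.46) and Ehmt2 (-0.43), which code for histone H3 lysine methyltransferases, the DNA methyltransferase gene Dnmt1 (-0.37), Daxx (-0.46), a histone chaperone gene, and Atrx (-0.30), the gene of the chromatin remodelling ATPase it works with, and Gata2, a transcription factor gene (-1.49, all on the log2 scale). Trim28, the corepressor that brings Setdb1 to retroviral sequences, had 340 ± 24.5 and 316 ± 18.7 CPM (SD, n = 3 each, log2 fold change -0.10, adjusted p = 0.349). Genes that are transcribed together with MERVL in early embryos (Zscan4c, Zscan4d, Zfp352, Tcstv1 and Tcstv3) were almost without reads, as were Dppa2 and Dppa4 of the same list. They had 2 to 11 reads each over all 6 libraries and were not tested. Duxf3, Dux, Zscan4f, Kdm1a and Lin28a were not in the tables under these names.

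Several of the largest increases rested on 1 copy. MER74A, an LTR of the ERVL family, had 2.03, 2.46 and 3.31 CPM in CD24- and 6.08, 7.30 and 9.26 CPM in CD24+ libraries (log2 fold change 1.57 ± 0.23, adjusted p = 3.47e-04). One copy held 69.8% of its reads, and without that copy the log2 fold change was -0.51 (adjusted p = 0.362). MamGypLTR1b, a Gypsy LTR, had 1.25, 0.985 and 2.15 CPM in CD24- and 4.42, 4.12 and 4.01 CPM in CD24+ cells (1.52 ± 0.27, adjusted p = 0.00123), with 59.7% of its reads in 1 copy and a value of 0.02 without it. MTEb-int had 4.68, 3.80 and 4.39 CPM in CD24- and 10.6, 8.36 and 11.2 CPM in CD24+ cells (1.23 ± 0.18, adjusted p = 2.83e-04), and it was at -0.08 without the copy that held 55.0% of its reads. MLT-int had 36.1, 39.1 and 36.1 CPM in CD24- and 72.3, 53.4 and 52.8 CPM in CD24+ cells (0.67 ± 0.13, adjusted p = 0.00166), and it was at 0.03 without the copy that held 77.1%. For MLT1H (0.55) and LTR87 (0.76) the values without the most-read copy were -0.15 and -0.39.

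Most of these copies were parts of genes that were higher in CD24+ cells. By exact match to GENCODE M21 transcripts, 76.5% of the reads of the MER74A copy matched Trim35, a gene of the tripartite motif family that went from 5.01 ± 0.593 to 98.9 ± 9.70 CPM (SD, n = 3 each). Of the reads of the MamGypLTR1b copy 85.5% matched Sdc2, the gene of the proteoglycan syndecan 2 (log2 fold change 3.51). Of the reads of the MTEb-int copy 91.3% matched Loxl2, which codes for an enzyme that cross-links collagen (2.76). The MLT1H copy matched Srxn1, the sulfiredoxin gene (0.84), and the LTR87 copy matched Wwp1, a ubiquitin ligase gene (0.73). The MLT-int copy on chromosome X matched Rpl22-ps1, a pseudogene, with 46.1% of its reads and Rpl22 itself, a ribosomal protein gene with a log2 fold change of 0.96, with 45.6%. For that share the copy and Rpl22 could not be told apart, while the remaining reads of the copy matched no transcript exactly. The value of the copy was -0.09 when each distinct sequence was counted once.

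MLT1E3, LTR33B and ERVL-B4-int had larger values without the most-read copy, and MLT1E3 and LTR33B were still called. LTR33B had 0.780, 1.69 and 1.74 CPM in CD24- and 3.10, 2.49 and 3.43 CPM in CD24+ libraries (log2 fold change 1.09 ± 0.30, adjusted p = 0.0139), and it was at 1.69 (adjusted p = 0.00262) without the copy in Ttf1. MLT1E3 had 6.24 ± 0.761 and 8.78 ± 1.24 CPM (SD, n = 3 each, 0.51 ± 0.16, adjusted p = 0.0273), and it was at 0.88 (adjusted p = 0.0157) without the copy whose reads matched Mgat4a. Both had a copy of 39.7% and 41.7% of the reads, and both calls were lost when some single libraries were left out. Of the 11 annotations that were higher, 7 had over 50% of their reads in 1 copy (median 59.7%), and 2, LTR33B and MLT1E3, were still called as higher without their most-read copy, while 5 changed sign. ERVL-B4-int (0.45 ± 0.16, adjusted p = 0.0441) had 29.1% of its reads in a copy that matched Fv1, a retrovirus restriction gene that descends from an ERVL gag gene, and that copy did not pass the test (0.40, adjusted p = 0.272). Without it ERVL-B4-int was at 0.48 (adjusted p = 0.0695).

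The annotations that were lower were spread over more copies. RMER10A had 64.9, 57.6 and 69.1 CPM in CD24- and 26.8, 38.4 and 38.3 CPM in CD24+ libraries (log2 fold change -0.87 ± 0.14, adjusted p = 5.11e-04). It was at -0.89 without the copy that held 22.3% of its reads, which lay in Tnfrsf22, a gene that was lower too (-0.81). MLT1E1, with the largest decrease, had 4.99, 4.22 and 4.80 CPM in CD24- and 2.10, 2.24 and 2.02 CPM in CD24+ cells (-1.13 ± 0.19, adjusted p = 8.48e-04), and stayed at -1.07 without its most-read copy. MTE2a-int had 14.7, 13.4 and 16.0 CPM in CD24- and 7.30, 9.34 and 8.76 CPM in CD24+ cells (-0.77 ± 0.14, adjusted p = 0.00114, -0.82 without a copy of 70.6% of its reads). That copy lay in Nfx1, which was lower as well (-0.36). ORR1D1-int had 23.2, 19.3 and 27.6 CPM in CD24- and 8.51, 16.2 and 13.9 CPM in CD24+ cells (-0.81 ± 0.20, adjusted p = 0.00856). Its most-read copy had reads that matched transcripts of Mdm4, which was lower (-1.45). In these 4 annotations no CD24+ library reached the CD24- range, which the rule for naming them required. LTR16B (-0.73 ± 0.18, adjusted p = 0.00827) had 87.0% of its reads in 1 copy on chromosome 6 and was not tested without it. MLT1J2 (-0.67 ± 0.23, adjusted p = 0.0412) and MLT1I (-0.61 ± 0.22, adjusted p = 0.0426), at 2.41 and 3.50 CPM over all libraries, were near the threshold and were lost under most alternatives. Of the 25 lower annotations 4 had over 50% of their reads in 1 copy (median 13.9%), 18 were still called as lower without it, and 0 changed sign. That fit, added after the values were seen, called 3 annotations as higher and 24 as lower of 132 tested.

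**Figure D2:**
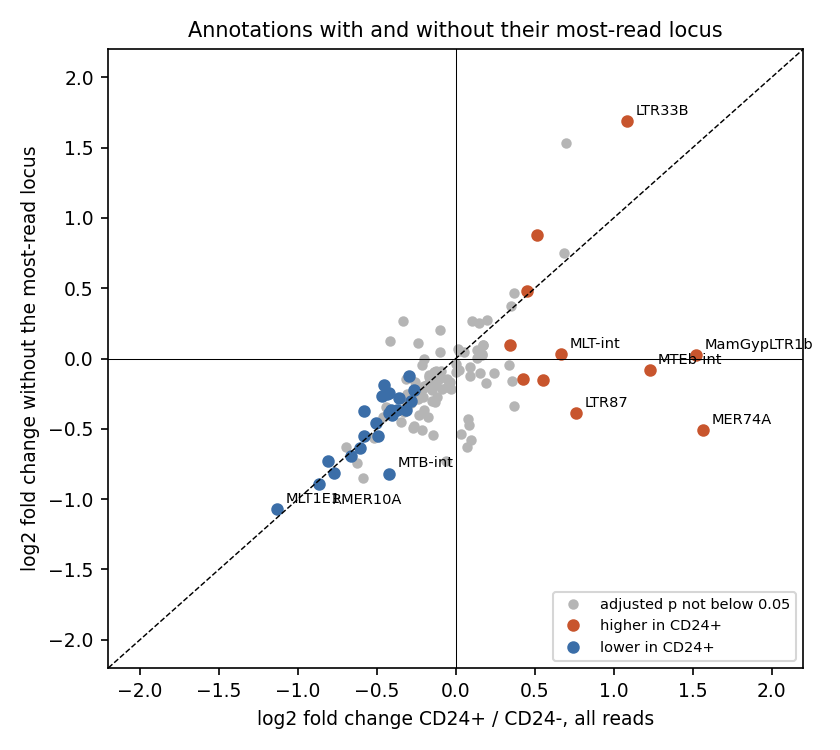
Log2 fold change CD24+ over CD24- of each tested annotation with all its reads (horizontal axis) and without its most-read genomic copy (vertical axis), with orange for annotations higher and blue for those lower in CD24+ cells (adjusted p below 0.05) and grey for the others. The dashed line marks equal values: most blue points lie along it, while MER74A (1.57 to -0.51), MamGypLTR1b (1.52 to 0.02) and MTEb-int (1.23 to -0.08) fall far below it.

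The genomic copies were tested singly. A copy, or locus, was a run of reads of 1 annotation with starts at most 1000 bases apart. Most were hardly read, 44476 of the 50950 with fewer than 10 reads in all, and the 100 most-read loci held 24.4% of the reads. Of 3180 LTR loci with enough reads 744 were of these families, with 47.4% of their reads. In CD24+ cells 83 loci were higher and 135 lower, 29.3% of the 744, where 35.5% of all tested LTR loci were called, 9.18% as higher and 26.3% as lower. The groups did not overlap for 81 of the 83 and 134 of the 135, which a call makes likely, and for 118 of the 526 loci not called. Over all tested LTR loci, called or not, 48.7% had no overlap. The split of the calls rested on the scaling, since TMM scaling gave 146 higher and 100 lower and DESeq2 87 and 66, and TMM moved the median log2 fold change of all tested LTR loci from -0.17 to 0.04 and that of these 744 from -0.07 to 0.13.

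Of the 3 most-read loci, 1 passed the test. An MLT1A1 stretch at chr19:44380726-44380959 in Scd2, the gene of a stearoyl-CoA desaturase, had 7597 reads in all and 72.3, 70.5 and 63.2 CPM in CD24- and 69.4, 79.1 and 91.0 CPM in CD24+ cells. Its libraries overlapped (log2 fold change 0.22 ± 0.11, adjusted p = 0.127), and Scd2 was at 0.29. The MLT-int locus at chrX:7615940-7616086, whose reads were set beside Rpl22 above and which lay 22344 bases from the nearest gene with reads, Suv39h1 (-0.94), had 25.1, 27.3 and 26.2 CPM in CD24- and 61.0, 43.2 and 40.8 CPM in CD24+ cells (0.87 ± 0.14, adjusted p = 1.80e-04). An MTB-int locus at chr11:40515048-40515851, with 67.6% of its reads in transcripts of the hyaluronan receptor gene Hmmr, had 32.5 ± 1.94 and 31.1 ± 3.47 CPM (SD, n = 3 each, -0.05 ± 0.11, adjusted p = 0.756), and its direction turned with TMM scaling and DESeq2.

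The largest decreases were loci with reads in CD24- cells and hardly any in CD24+ cells, some far from genes and some in or near one. The RMER10A copy at chr1:7042462-7043175 had 15.4, 13.4 and 15.5 CPM in CD24- and 0.332, 0.408 and 0.740 CPM in CD24+ libraries (log2 fold change -4.76 ± 0.23, adjusted p = 1.06e-09). Directly beside it, the ORR1D1 copy at chr1:7043187-7043951 had 16.1, 15.7 and 13.8 CPM in CD24- and 0.221, 0.571 and 0.817 CPM in CD24+ cells (-4.61 ± 0.24, adjusted p = 1.70e-09). An ORR1B2 copy at chr1:7038277-7038468 moved with them (-4.58). All 3 lay between 35116 and 40599 bases from Pcmtd1, the nearest gene with reads, which was higher in CD24+ cells (0.57), and none of their reads matched a GENCODE M21 transcript. Reads without annotation within 5 kb on either side of the RMER10A copy went from 42.2 ± 1.15 to 1.57 ± 0.312 CPM (SD, n = 3 each), so the difference covered the whole stretch and not the repeats alone. These 2 sequences are the last printed above.

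Other loci of this kind stood on chromosomes 13 and 15. The RMER15 copy at chr13:103165127-103165655 had 2.89, 2.88 and 3.06 CPM in CD24- and 0, 0.0408 and 0.0778 CPM in CD24+ cells (-5.67 ± 0.43, adjusted p = 1.03e-07), with no gene read within 100 kb, and unannotated reads around it went from 3.97 ± 1.00 to 0.0531 ± 0.0461 CPM. The MTD copy at chr13:28101698-28102148 had 13, 17 and 16 reads in CD24- libraries and 0 in all 3 CD24+ libraries. Set against a floor of 3 reads over the CD24+ group, it was at least 23.2-fold lower in CD24+ cells (adjusted p = 7.03e-06). It lay 5901 bases from reads of Prl4a1, a gene of the prolactin family that fell from 3.77 ± 0.285 to 0.0628 ± 0.0568 CPM. On chromosome 15, between Fam49b and Asap1, an MTB copy at chr15:63899770-63900183 had 0.936, 1.34 and 1.08 CPM in CD24- and 0, 0.0408 and 0.0389 CPM in CD24+ cells (-4.77 ± 0.55, adjusted p = 6.65e-06). The MTB-int and MT2C_Mm copies next to it were lower too (-4.60 and -4.34), and the 3 together went from 11.9 ± 3.25 to 0.409 ± 0.264 CPM. Of the reads of this MT2C_Mm copy 0.840% matched the transcript Gm17151, and of the reads of the other copies none matched a transcript. It was the most-read copy of its annotation, and without it the annotation was at -0.37 rather than -0.58. Of the flanking genes, Fam49b, 7747 bases away, was lower as well (-0.47) and Asap1 was higher (1.20).

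The last of the large decreases lay in a gene. An MTD copy at chr4:140310347-140310946, within Padi4, which codes for a peptidylarginine deiminase, had 19, 11 and 9 reads in CD24- libraries and 0 in the CD24+ libraries, at least 19.7-fold lower by the same floor (adjusted p = 4.39e-05). Padi4 went from 138 ± 34.7 to 17.0 ± 4.31 CPM (log2 fold change -3.05), and none of the reads of the copy matched an annotated transcript.

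The largest increases were in or beside genes that were higher in CD24+ cells. The MTEa copy at chr8:123582845-123583248 had 0, 0.211 and 0.0828 CPM in CD24- and 1.66, 1.96 and 3.11 CPM in CD24+ cells (4.42 ± 0.55, adjusted p = 1.43e-05). Of its reads 95.9% matched Fendrr, the long non-coding RNA gene next to Foxf1, and an MTD copy at chr8:123590151-123590594 was higher as well (3.50). Foxf1a, the forkhead transcription factor gene on that side, was at 3.39. The MER68 copy at chr6:48795981-48796467 had 0.702, 0.633 and 0.331 CPM in CD24- and 11.5, 6.36 and 10.9 CPM in CD24+ cells (4.05 ± 0.33, adjusted p = 1.98e-07). It lay 574 bases from reads of Tmem176a, a transmembrane protein gene at 3.56, and 30.6% of its reads matched a Tmem176a transcript. The MTE2b copy at chr2:178221693-178222054 had 0, 0.0704 and 0.166 CPM in CD24- and 1.22, 1.67 and 2.02 CPM in CD24+ cells (4.35 ± 0.54, adjusted p = 1.45e-05), with 96.3% of its reads in transcripts of the cadherin gene Cdh26 (3.35).

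The copies that set the MER74A and MamGypLTR1b annotations were among the largest increases too. The MER74A copy at chr14:66928311-66928535 in Trim35 had 0.468, 0.352 and 0.745 CPM in CD24- and 5.86, 5.51 and 7.47 CPM in CD24+ cells (3.61 ± 0.29, adjusted p = 1.83e-07). The MamGypLTR1b copy at chr15:32963407-32963576 in Sdc2 had 0.234, 0.281 and 0.166 CPM in CD24- and 3.43, 2.81 and 2.72 CPM in CD24+ cells (3.63 ± 0.35, adjusted p = 1.10e-06). Copies were named as largest changes only if the groups did not overlap, so the separation of their libraries follows from that rule. Both genes were higher too (Trim35 4.29 and Sdc2 3.51 on the log2 scale).

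One increase was outside any annotated transcript. The ORR1D2 copy at chr3:152372404-152372752 had 0.156, 0.0704 and 0 CPM in CD24- and 1.11, 1.02 and 1.56 CPM in CD24+ cells (3.91 ± 0.56, adjusted p = 6.53e-05), 78 reads in all. It lay 4326 bases from reads of Pigk, a gene of the enzyme that attaches glycosylphosphatidylinositol anchors (1.04), and unannotated reads around it went from 0.149 ± 0.141 to 0.582 ± 0.0703 CPM (SD, n = 3 each).

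**Figure D3:**
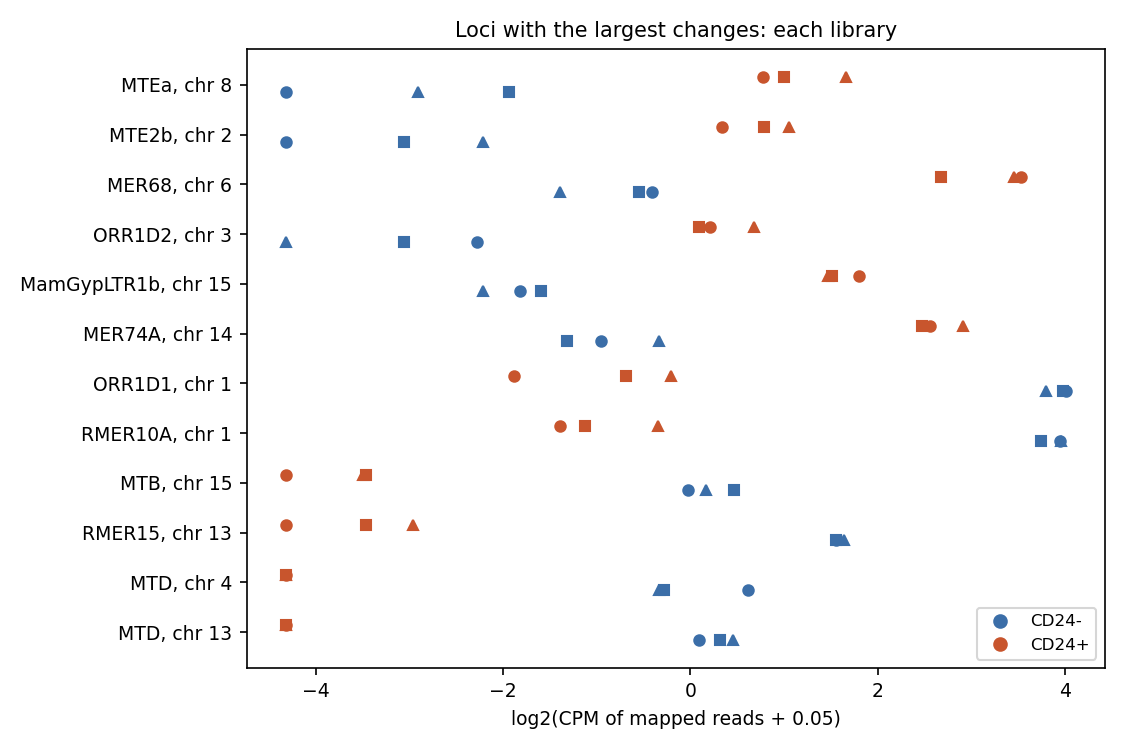
Level of the 12 loci with the largest changes in each library, as log2(CPM of mapped reads + 0.05), with circles, squares and triangles for replicates 1, 2 and 3, CD24- in blue and CD24+ in orange. The 6 upper loci have their CD24+ libraries to the right of all CD24- libraries and the 6 lower loci have them to the left. The rule for naming loci required this separation. Both MTD copies stand at the left edge with 0 reads in every CD24+ library.

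Where a called locus lay in a tested gene, its direction mostly went with that of the gene. Of the 744 loci 361 lay between reads of 1 tested gene, 325 genes in all. The other called loci, 50 higher and 53 lower, lay in no tested gene. Of 33 higher loci with such a gene, 29 lay in a gene that was higher in CD24+ cells, 1 in a lower one and 3 in one that was not called. Of 82 lower loci, 54 lay in a lower gene, 0 in a higher one and 28 in one that was not called. Of 246 loci that were not called, 27 lay in a higher, 61 in a lower and 158 in a gene that was not called. The median log2 fold change of the genes was 0.75, -0.50 and -0.10 for the higher, lower and not called loci. As a description across loci, which share libraries and are not independent, Pearson's r of locus and gene was 0.80 and Spearman's rho 0.63 over 361 loci.

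**Figure D4:**
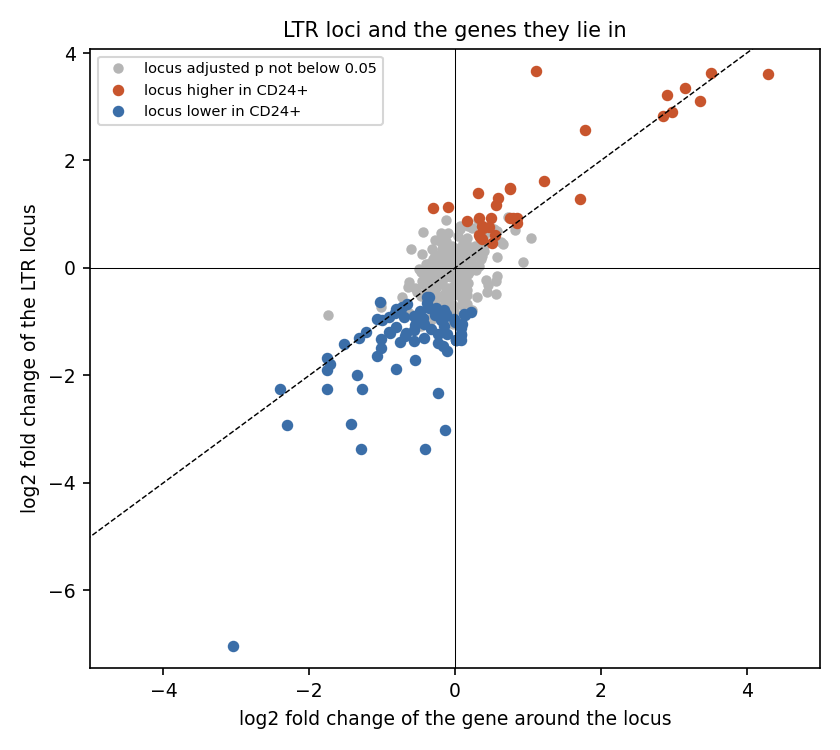
Log2 fold change CD24+ over CD24- of 361 LTR loci (vertical axis) against that of the gene whose reads lie on both sides of the locus (horizontal axis), with orange and blue for loci higher and lower in CD24+ cells and grey for the others. The dashed line marks equal values: 29 of 33 orange points belong to genes that were called higher, 54 of 82 blue points to genes that were called lower, and a number of blue points lie well below the line.

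The source of the reads was described for higher and lower loci, with no test of a difference, and the split of the loci changed with the scaling as given above. Over the 744 loci 61.0% of the reads matched a GENCODE M21 transcript exactly. More than 50% of the reads did so for 63 of the 83 higher loci, 49 of the 135 lower loci and 346 of the 526 loci that were not called. No read did so for 15, 67 and 136 loci. Around called loci that lay in no tested gene, the unannotated reads within 5 kb were read beside them wherever they summed to at least 1 CPM over the libraries. They were more in CD24+ cells for 33 of 36 higher loci (median ratio 1.79) and for 1 of 47 lower loci (median ratio 0.448). Around loci that were not called they were more for 103 of 199 (median ratio 1.01). The base composition was close, with a median GC content of 46.2%, 46.7% and 45.5% in the higher, lower and not called loci.

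Some called loci had called neighbours. When loci within 10 kb of each other were joined, 222 of the 744 tested loci stood in 99 runs of more than 1 locus. The 218 called loci fell into 183 runs, of which 26 held more than 1 called locus, 61 of the 218 loci in all. In 18 of these runs the called loci were all lower, in 8 all higher, and 0 runs held both directions. The loci of a run can be parts of 1 transcript and are then not independent. The most-read run with more than 1 called locus, at chr17:27031800-27037861, held ORR1D1, ORR1D2, MLT1A1 and ORR1A2 copies that were all lower (log2 fold changes -2.73 to -1.01), and reads of its ORR1D2 and ORR1A2 copies matched in part (3.71% and 37.2%) transcripts of Gm20468 and AC144621.3. The most-read copies of 3 of the lower ORR1 annotations were here, and without them ORR1D1 was at -0.55, ORR1D2 at -0.19 and ORR1A2 at -0.25, where the first alone was still called. At chr7:150820679-150824162, in the decoy death receptor gene Tnfrsf22, RMER10B, MERVL-int, RMER10A and ORR1B1 copies were all lower (-1.10 to -0.58), as was the gene (-0.81). The most-read copy of MERVL-int was one of these. Among runs that were higher, 3 MTEa and MTEa-int copies at chrX:165089191-165091407 had 8.33 ± 0.737 CPM in CD24- and 14.5 ± 1.75 CPM in CD24+ libraries (SD, n = 3 each) and log2 fold changes of 0.75 to 1.54, and none of their reads matched a transcript.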

How the data were processed

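Poly(A)-selected RNA of 3 CD24- and 3 CD24+ plates of Mvt1 cells was sequenced with a kit that does not mark strand, so overlapping genes cannot be separated. The authors trimmed reads to 47 bases, collapsed identical ones, mapped each distinct sequence to mm9 (build from the submitters' processing notes) by exact match and gave it 1 location and 1 annotation, and they deposited raw counts per sequence, neither normalized nor pooled. Copies with identical sequence can therefore not be told apart. The mapping tool is not given in the sources used here.

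Counts were summed per annotation and per locus (starts at most 1000 bases apart) and expressed per 1000000 mapped reads (CPM), unannotated reads included. Members, lists and comparisons were chosen with earlier results of these data known. Shares per library were compared by two-sided exact permutation tests, smallest p 0.1. Annotations and LTR loci were fitted with edgeR 4.0.16 (R 4.3.3, filterByExpr, quasi-likelihood test, Benjamini-Hochberg over each whole table, threshold 0.05, library size all mapped reads without TMM). DESeq2 1.42.0 was an alternative. Named annotations were the 5 most read, the 8 largest increases and decreases called at a mean of at least 0.5 CPM without overlap, and all MERVL and MT2 names. Named loci were the 3 most read and the 6 largest changes each way called at a mean of at least 0.3 CPM without overlap. Loci on chromosome 18, of which 5 were called, were counted but not named. Runs, top copies and transcript genes were described after values were seen. Reads were matched to GENCODE M21 transcripts on either strand. On simulated counts, features changed 2-fold were recovered for 96% of those raised and 96% of those lowered in the annotation table (11765 tested). In the locus table (3000 tested) the shares were 98% and 80%. The simulation gave every feature the same fixed dispersion and changed only the better-read ones. These rates are therefore not the power of the tests on the real counts, least of all for loci with few reads. No pair of libraries within a group was a duplicate by chi-square per degree of freedom. The value was 2.04 for CD24- replicates 1 and 2, the closest pair, and 10.2 to 42.2 for the other pairs within a group. How independent these plates were is not stated.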

Additional observations from a re-analysis of the deposited data

How the results depend on the processing

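The shares of all members and of MaLR, ERVL and Gypsy reads kept their direction under every alternative run, of which leaving out the most-read locus, an MLT1A1 copy, could move only all members and MaLR. For all members the log2 ratio, -0.20, ran from -0.251 to -0.110 with 1 library left out, was lowest in size without CD24+ replicate 1, and was -0.0741 (exact permutation p = 1) with each distinct sequence counted once. Counts cover 36 annotations and 218 loci called. Each distinct sequence counted once gave 15 annotations (11 higher, 4 lower) and 199 loci (110 higher, 89 lower, against 83 and 135), and it turned MTA_Mm (0.0247), ORR1E (0.0604), MT2B2 (0.0109), the MLT1A1 locus on chromosome 19 (-0.0888) and the MLT-int locus on chromosome X (-0.0927). Deeper libraries repeat sequences more often, and the cause was not tested. Leaving out 1 library gave 22 to 36 annotations, with 22 without CD24- replicate 1, and 172 to 228 loci. Other settings gave 25 to 38 annotations and 153 to 247 loci. On the locus table TMM gave 146 higher and 100 lower and DESeq2 87 and 66, and TMM factors of the annotation table, added after the data were seen, 97 and 133. The MTB-int locus on chromosome 11 turned to 0.16 with TMM, 0.14 with DESeq2 and ran from -0.145 without CD24+ replicate 2 to 0.0104 without CD24+ replicate 1. MT2_Mm, near 0 throughout, was at -0.0025 with the replicate block, -0.00055 with repeat annotations only, -0.0928 without its most-read copy, and from -0.0871 without CD24- replicate 2 to 0.0914 without CD24- replicate 3. Without the most-read copy, a setting added after the data were seen, MER74A (-0.51), MTEb-int (-0.0844), LTR87 (-0.39) and MLT1H (-0.15) turned. Among named annotations and loci 46 other values lost the call and 6 gained it.

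With the replicate block, 28 annotations (8 higher, 20 lower) and 170 loci (60 higher, 110 lower) were called, but same-numbered libraries shared only a number (correlations of their deviations 0.01, -0.29 and -0.30). Depth limits single copies, since the shallowest library had 9046025 reads and 44476 of 50950 loci had fewer than 10 reads in all.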
